A study of Mus musculus with 8 samples.

Results

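Genes were ranked by how much their transcript level varied among 3 libraries of Meis1 knockout (KO) mouse embryos, and the programmes at each end of that ranking are described here. The members were chosen by 2 columns of the authors' table, the mean normalised count of the KO libraries and the ratio of the variance among them to a fitted variance, so both are given as descriptions without a test. Of 18904 genes, 13045 had a KO mean of at least 20 normalised counts and were kept. Just inside that limit lay Lipo1 (mean 20.007, variance ratio 0.112) and Gpr37 (20.018, 0.420), and just outside it Gm13552 (19.984, 0.392) and Myt1l (19.966, 3.22).

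The series holds 8 samples of messenger RNA from whole C57BL/6 embryos at embryonic day 11.5. They are 3 libraries labelled Meis KO with 3 labelled wild type (WT), littermate controls per the labels' protocol, and 1 library labelled Prep Hypo (Prep1 hypomorph) with 1 labelled wild type. No source used here gives the allele, the number of embryos per library or the cells in which the gene was lost, so any spread between samples may be partly technical. Whole counts per library were worked back from the deposited group means. In each group the libraries are named a, b and c from the smallest to the largest, and they could not be tied to the sample codes in the labels. KO a, b and c held 4332033, 4802833 and 4906373 counts in all. WT a, b and c held 4341731, 4591873 and 6309821. All levels below are normalised counts, that is counts divided by the authors' size factor for that library, and they are compared between libraries and not between genes.

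Meis1 itself, the targeted gene (chromosome 11, 18780433 to 18918961 on mm9), had 407, 322 and 335 in KO a, b and c and 439, 414 and 529 in WT a, b and c. Every KO value lay below every WT value, by a small margin. The log2 difference of KO against WT was -0.38 (standard error 0.156) and edgeR (quasi-likelihood, Benjamini-Hochberg) gave an adjusted p of 0.9999. Since the deleted part of the gene is not given, a count over the whole gene does not check the labels. With a variance ratio of 0.318, Meis1 ranked 7215th of the kept genes.

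Meis1 encodes a homeodomain transcription factor of the TALE family that binds DNA with Pbx and Hox proteins and is required for blood and vascular development. Cells short of oxygen stabilise hypoxia-inducible factors, which raise glucose transporters, glycolytic enzymes, angiogenic ligands and mitophagy proteins through a short core motif in their target genes. Heat shock factor and the metal-responsive factor likewise drive chaperone and metallothionein genes in stressed cells. The proteasome and the respiratory chain are housekeeping complexes of many subunits that nearly every cell makes.

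The variance ratio had a median of 0.375 over the kept genes, a 95th percentile of 2.54, a 99th percentile of 6.93 and a highest value of 119. That value belonged to AY036118, which had 2076, 214 and 159.8 in KO a, b and c and 92.2, 137 and 187 in WT a, b and c. Since the median lay well below 1, ratios are read here by rank. The top 10% (1304 of the 13045 kept genes) began at a ratio of 1.70, and the bottom 10% lay at or below 0.0503. Highly expressed genes were somewhat more frequent at the top, since 7.76% of genes with a mean from 20 to 50 were in the top 10% against 13.5% of those at 1000 or more. Of the top 10%, 361 genes (27.7%) were also in the top 10% of the same ratio among the WT libraries.

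Among the 100 highest ratios, KO a was the library that most often stood apart. It was at least 2-fold higher than both other KO libraries in 182 genes (1.4% of the 13038 kept genes whose counts were recovered in all 6 libraries), and 66 of these were among the 100 highest ratios. It was at least 2-fold lower than both in 155 genes (1.19%), of which 2 were among those 100. KO b was higher in 101 genes (0.775%) and lower in 137 (1.05%), and KO c in 17 and 51. The names a, b and c follow library size, and KO a is the smallest of the KO libraries by total.

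**Figure D1:**
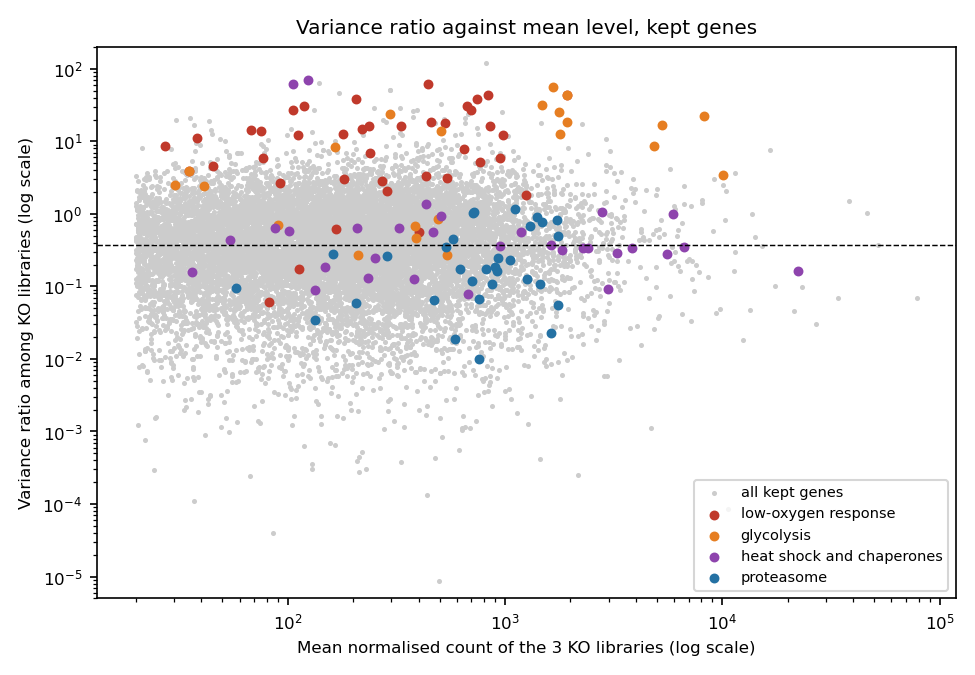
Variance ratio among the KO libraries against the mean normalised count of those libraries, both on log scales, with 1 point per kept gene and 4 gene lists in colour. The dashed line is the median ratio of 0.375. Most low-oxygen and glycolysis genes lie above the line, most proteasome genes lie below the line, and of the heat shock list only Hspa1a and Hspa1b stand high.

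Genes of the low-oxygen response varied most. Of 45 listed genes all 45 were in the table and 40 were kept, with a median ratio of 11.6 against 0.375 for all kept genes, and 36 of the 40 (90.0%) were in the top 10%. In 39 of the 40 the KO a value was the highest of all 6 libraries, which was true of 3521 of the 13038 kept genes with counts. Over the list, the median log2 difference between KO a and the mean of KO b and KO c was 1.54, against -0.01 over all kept genes. Without KO a, 5 of the 40 were in the top 10%. The list was put together with earlier results of these data known, and its count is not independent evidence.

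Bnip3, a mitochondrial protein that directs mitophagy, held the highest ratio of the list (62.7) and had 1032, 145 and 148 in KO a, b and c and 98.9, 138 and 132 in WT a, b and c. KO a was above every other library, and KO b and KO c lay just above the WT range. Bnip3l, its close relative, had 1007, 477 and 458 in KO a, b and c and 452, 552 and 479 in WT a, b and c. Its KO a value was again the highest and the other libraries overlapped.

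Among secreted ligands and their receptor, Vegfa, the main angiogenic growth factor, had 1706, 350.4 and 436 in KO a, b and c and 332, 256 and 336 in WT a, b and c. KO a stood apart, and KO b and KO c also lay above all WT values. Flt1, a receptor that binds Vegfa, had 404, 126 and 131 in KO a, b and c and 115, 96.7 and 94.1 in WT a, b and c, and adrenomedullin (Adm), a vasodilator peptide, had 88.4, 20 and 6.82 in KO a, b and c and 13.5, 3.05 and 13.6 in WT a, b and c. Stc2, a secreted glycoprotein, had 250.2, 28.9 and 39 in KO a, b and c and 24.7, 18.3 and 25.6 in WT a, b and c. All 3 were highest in KO a.

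Transporter genes were also highest in KO a. The glucose transporter gene Slc2a1 had 3962, 885 and 964 in KO a, b and c and 1006, 710.1 and 786 in WT a, b and c, and Slc2a3, a second transporter, had 3748, 570.1 and 689 in KO a, b and c and 815, 752 and 945 in WT a, b and c. For Slc2a3, which is a gene of the glycolysis list, KO b and KO c lay below all WT values while KO a lay far above them. Slc16a3, which exports lactate, had 2778, 706 and 939 in KO a, b and c and 745, 468 and 702 in WT a, b and c.

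Enzymes and regulators of oxygen-dependent metabolism were also highest in KO a. Pdk1, which keeps pyruvate out of the mitochondrion, had 1518, 271 and 429.8 in KO a, b and c and 415, 244 and 397 in WT a, b and c. Ddit4, an inhibitor of mTORC1 signalling, had 1297, 410.4 and 303 in KO a, b and c and 254, 347 and 296 in WT a, b and c, and Ndrg1 had 479, 71.9 and 66.3 in KO a, b and c and 50.6, 83.4 and 76 in WT a, b and c. In each of these the values of the other 5 libraries overlapped between the genotypes.

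The collagen-modifying hydroxylases P4ha1, P4ha2 and Plod2, which need oxygen, had KO a values of 1331, 593 and 1467. Their values in the other 5 libraries ranged from 319.5 to 378 for P4ha1, from 129 to 236 for P4ha2 and from 475 to 589.6 for Plod2. The oxygen sensor genes Egln3 and Egln1, which mark hypoxia-inducible factors for breakdown, had 215 and 598 in KO a, against 35.4 to 65.9 and 320.5 to 366 elsewhere. The 4 kept members outside the top 10% were Gbe1, Cited2, Pfkfb4 and Insig2, with ratios of 0.628, 0.564, 0.175 and 0.0602.

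**Figure D2:**
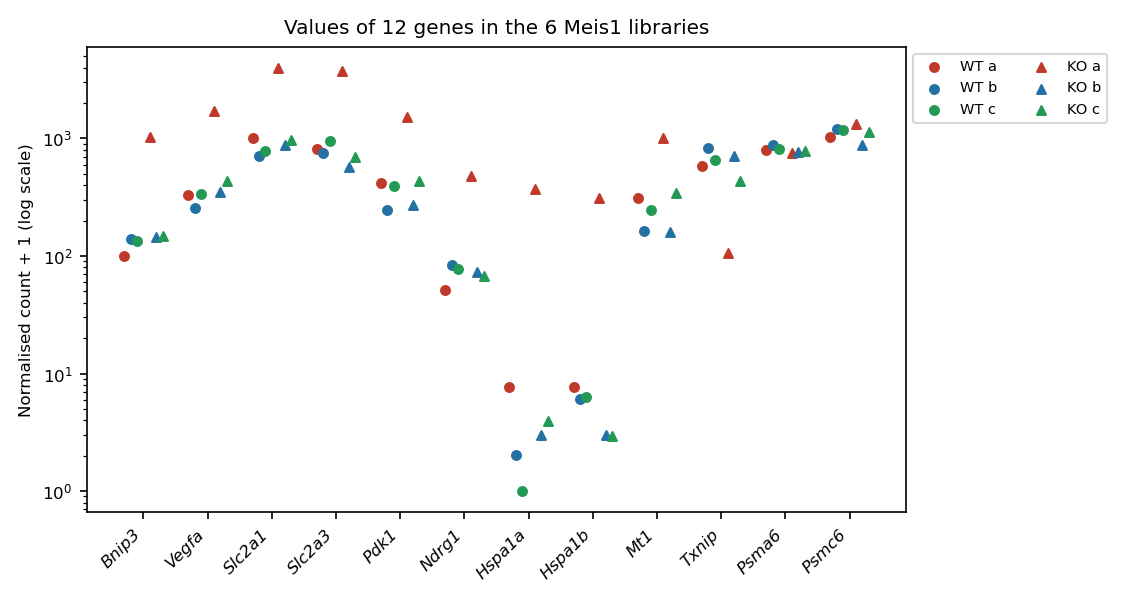
Normalised count plus 1 on a log scale for 12 genes, with circles for the WT and triangles for the KO libraries and a colour for each of a, b and c. In Bnip3, Vegfa, Slc2a1, Slc2a3, Pdk1, Ndrg1, Hspa1a, Hspa1b and Mt1 the red triangle (KO a) lies above all other symbols. In Txnip the red triangle lies below them, and in the proteasome genes Psma6 and Psmc6 the symbols stay close together.

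Glycolysis, which splits glucose to pyruvate and lactate, came next, with a median ratio of 8.62 over 22 kept genes and 16 of them in the top 10%, or 3 without KO a. Slc2a1 and Aldoc belong to both lists. Aldoa, an aldolase, had 15860.4, 4384 and 4364 in KO a, b and c and 5010.2, 3326 and 3941 in WT a, b and c. Ldha, which makes lactate, had 9416, 2910.4 and 3411 in KO a, b and c and 3486, 2586 and 3324 in WT a, b and c, and Tpi1 had 7732, 3295 and 3463 in KO a, b and c and 3422, 2859.9 and 3529 in WT a, b and c. KO a was the highest library in all 3.

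The hexokinase gene Hk2 had 858, 288 and 373 in KO a, b and c and 387, 202 and 291 in WT a, b and c and the phosphofructokinase genes Pfkp and Pfkl had KO a values of 589 and 2919 against 136 to 157 and 954 to 1271 elsewhere. Ldhb (ratio 0.268), Pfkm (0.467) and Hk1 (0.859) were outside the top 10%. Eno2, the neuronal enolase, was not highest in KO a, with 26.4, 52.9 and 11.7 in KO a, b and c and 19.1, 56 and 20.3 in WT a, b and c.

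To show where the low-oxygen core motif lies in these genes, windows from 250 bases before to 50 after the start of transcription were read from RefSeq (GRCm38.p6), with the motif in capitals. The letters searched were ACGTG on both strands. Ankrd37 carries it at 2 places and Slc2a1 at 1. Bnip3 has it at 1 place, where CACGTG reads the same on both strands.
Bnip3, chr7:138909457-138909756, minus strand: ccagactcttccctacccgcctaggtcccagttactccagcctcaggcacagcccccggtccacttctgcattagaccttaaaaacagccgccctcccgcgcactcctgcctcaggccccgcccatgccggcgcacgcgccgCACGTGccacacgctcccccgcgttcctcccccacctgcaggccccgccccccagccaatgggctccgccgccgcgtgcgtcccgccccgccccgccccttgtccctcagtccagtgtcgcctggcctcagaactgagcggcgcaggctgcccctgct
Slc2a1, chr4:119108495-119108794, plus strand: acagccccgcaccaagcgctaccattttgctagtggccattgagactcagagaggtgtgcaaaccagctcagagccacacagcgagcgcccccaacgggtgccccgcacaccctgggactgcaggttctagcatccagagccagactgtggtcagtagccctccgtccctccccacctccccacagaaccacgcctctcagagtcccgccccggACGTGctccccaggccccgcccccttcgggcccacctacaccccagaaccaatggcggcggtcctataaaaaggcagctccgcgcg
Ankrd37, chr8:45999801-46000100, minus strand: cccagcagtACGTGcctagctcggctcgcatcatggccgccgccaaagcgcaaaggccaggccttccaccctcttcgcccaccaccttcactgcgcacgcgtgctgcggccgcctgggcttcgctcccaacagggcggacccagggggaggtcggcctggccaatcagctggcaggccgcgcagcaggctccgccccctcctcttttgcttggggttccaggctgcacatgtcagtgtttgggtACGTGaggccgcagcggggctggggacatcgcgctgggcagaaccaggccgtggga
Ankrd37, an ankyrin repeat protein, had 161, 30.9 and 33.1 in KO a, b and c and 25.9, 17.3 and 26.3 in WT a, b and c.

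Of the 34 low-oxygen genes with such a window, 22 (64.7%) held the motif, as did 13 of 21 glycolysis genes (61.9%) and 2588 of 8670 kept genes with a window (29.9%). Among the genes at least 2-fold higher in KO a, 47 of 110 held it (42.7%). Vegfa has 2 listed windows, of which 1 held the motif, and the Stc2 window held none. The metal-responsive core searched below was also more frequent in these 2 lists than over all kept genes. A match in this window is a description of the letters there and not a bound site.

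Stress genes split into a few that varied greatly and many that did not. Hspa1a, the inducible Hsp70 chaperone, had 367, 2 and 2.92 in KO a, b and c and 6.74, 1.02 and 0 in WT a, b and c, the second highest ratio of all kept genes (71.2). Hspa1b, its near-identical neighbour, had 313, 2 and 1.95 in KO a, b and c and 6.74, 5.09 and 5.27 in WT a, b and c. Both were near 0 in all libraries but KO a. Their transcripts are 99.2% identical over 2201 bases, so reads may be shared between them.

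Most other heat shock genes differed less between the KO libraries. Over 31 kept genes of the list the median ratio was 0.349, below that of all kept genes, and 2 of the 31 (Hspa1a and Hspa1b) were in the top 10%. Hspe1, a mitochondrial chaperonin, ranked next with 552, 346 and 405 in KO a, b and c and 501, 420.2 and 497 in WT a, b and c. Dnajb1, an Hsp70 partner, had 387, 309.5 and 281 in KO a, b and c and 340.5, 343 and 309 in WT a, b and c. In both genes KO a was the highest of all 6 libraries by a small margin, as it was in 13 of the 31 genes of the list and in 3521 of the 13038 kept genes. The median log2 difference of the list between KO a and the other KO libraries was 0.24.

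The heat shock element was searched as GAANNTTC, which is its own reverse complement. It was in 12 of 25 heat shock genes with a window (48.0%) and in 581 of 8670 kept genes (6.70%). The Hspa1a window shows it in capitals.
Hspa1a, chr17:34972107-34972406, minus strand: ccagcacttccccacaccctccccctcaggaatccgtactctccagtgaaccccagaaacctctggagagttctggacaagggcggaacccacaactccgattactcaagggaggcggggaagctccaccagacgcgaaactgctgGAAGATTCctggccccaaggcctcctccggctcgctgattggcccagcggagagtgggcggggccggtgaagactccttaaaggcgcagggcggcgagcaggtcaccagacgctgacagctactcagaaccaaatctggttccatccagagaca

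The metallothionein genes Mt1 and Mt2, whose products bind zinc and copper, ranked 14th and 19th. Mt1 had 1013, 159.7 and 345 in KO a, b and c and 311, 161 and 248 in WT a, b and c, and Mt2 had 670.3, 92.8 and 220.2 in KO a, b and c and 217, 105 and 181 in WT a, b and c. KO a was the highest of the 6 libraries in both, and the b libraries were the lowest of their group. The metal-responsive core was searched as TGCGCNC or TGCACNC on both strands and was in 42.0% of kept genes with a window. It was in 55.9% of the low-oxygen, 61.9% of the glycolysis and 40.0% of the heat shock genes with a window. Among the genes at least 2-fold higher in KO a the share was 53.6%. The Mt1 window holds it 3 times.
Mt1, chr8:94178839-94179138, plus strand: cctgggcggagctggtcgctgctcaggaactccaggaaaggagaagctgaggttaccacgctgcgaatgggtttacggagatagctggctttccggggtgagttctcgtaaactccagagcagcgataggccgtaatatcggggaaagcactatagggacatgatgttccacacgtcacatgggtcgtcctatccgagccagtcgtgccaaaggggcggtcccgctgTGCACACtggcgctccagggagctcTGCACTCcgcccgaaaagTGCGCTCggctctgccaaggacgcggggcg

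Other stress lists lay nearer to the background. The unfolded protein and amino acid stress list had a median ratio of 0.665 with 5 of 28 kept genes in the top 10%, among them Vegfa and Asns, the asparagine synthetase, with 723, 243 and 364 in KO a, b and c and 412, 272 and 422 in WT a, b and c. The p53 target list had a median of 0.320 with 4 of 24. Immediate early genes had a median of 0.982 with 8 of 24, and Ier3 had 64.3, 7.99 and 9.74 in KO a, b and c and 13.5, 7.12 and 8.28 in WT a, b and c. Without KO a these 3 counts were 2, 1 and 2.

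Clock genes had a median ratio of 1.18, with 6 of 17 in the top 10%, or 1 without KO a. Bhlhe40, a repressor that also belongs to the low-oxygen list, had 282, 35.9 and 38 in KO a, b and c and 22.5, 24.4 and 20.3 in WT a, b and c. Dbp, a clock output factor, had 75.8, 27 and 30.2 in KO a, b and c and 37.1, 34.6 and 41.4 in WT a, b and c. Both were highest in KO a. Txnip, which limits glucose uptake, had the opposite order, with 104, 705 and 433 in KO a, b and c and 578, 822 and 649.5 in WT a, b and c, and KO a was the lowest of the 6 libraries.

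**Figure D3:**
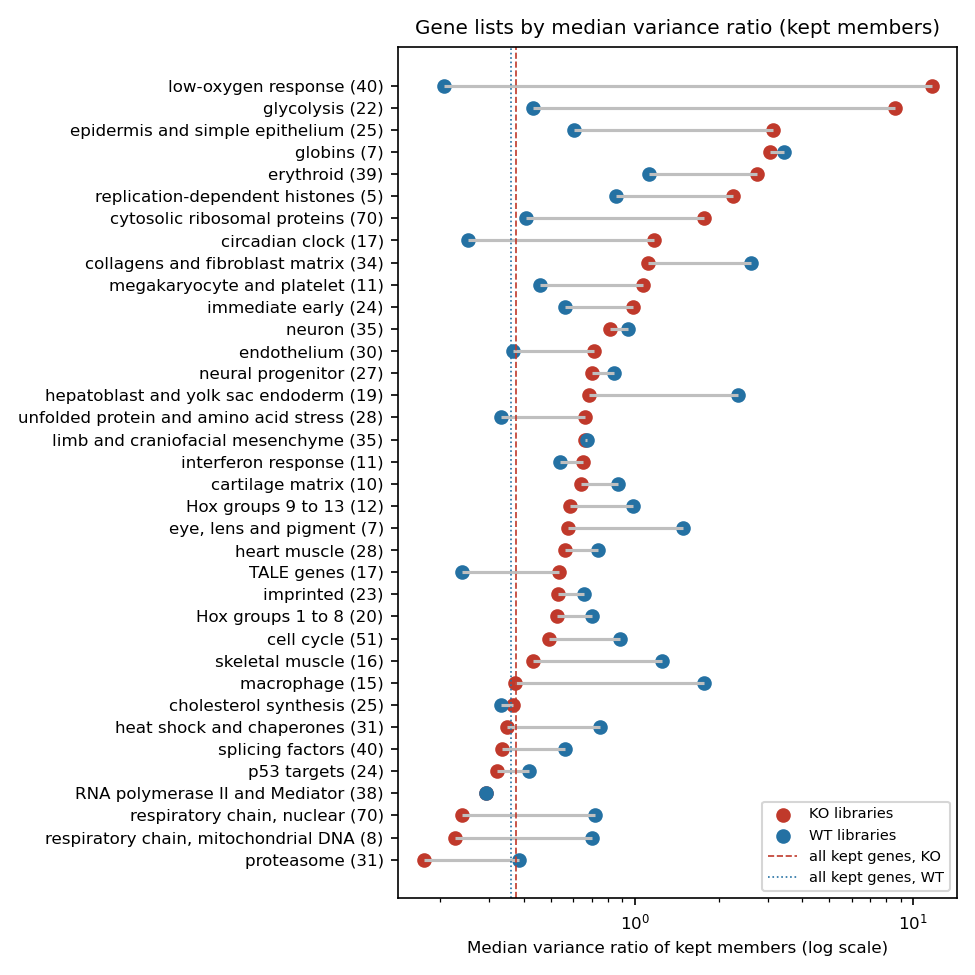
Median variance ratio of the kept members of each list with 5 or more of them, on a log scale, in red for the KO and blue for the WT libraries, with the number of members in brackets and the medians of all kept genes as dashed and dotted lines. Low-oxygen and glycolysis genes have the highest KO medians (11.6 and 8.62) and WT medians of 0.206 and 0.430. The ratios of both groups rest on a fitted variance taken to depend on the mean over both groups, so they are not separate measures.

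Some lists of tissue and cell type markers were also highest in KO a. Epidermal and simple epithelial genes had a median ratio of 3.14, with 18 of 25 kept genes in the top 10%, or 5 without KO a. In 19 of the 25 the KO a value was the highest of all 6 libraries. Trp63, the master factor of stratified epithelium, had 715, 298 and 302 in KO a, b and c and 332, 324 and 436 in WT a, b and c. Cdh1, the epithelial cadherin, had 631, 252 and 305 in KO a, b and c and 314, 285 and 420.0 in WT a, b and c. The WT libraries varied too, with 9 of the 25 genes in the WT top 10%. Among keratins of stratified epithelium, Krt5 had 427, 319.5 and 97.5 in KO a, b and c and 125, 704 and 473 in WT a, b and c, and Krt14 had 50.5, 115 and 46.8 in KO a, b and c and 23.6, 254 and 120.4 in WT a, b and c. Krt15 had 39, 76.9 and 22.4 in KO a, b and c and 20.2, 194 and 146 in WT a, b and c. In these 3 keratins, named after their values were seen, WT b was the highest of all 6 libraries, and in Krt14 and Krt15 KO b was the highest KO library. In whole embryos a change in the number of cells of a type and a change of RNA per cell cannot be told apart.

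Erythroid genes had a median ratio of 2.74, with 26 of 39 in the top 10%, or 19 without KO a and 19 without KO b. KO a was the highest KO library in 33 of the 39 and KO b the lowest in 29, against 5053 and 4476 of the 13038 kept genes. Slc4a1, the red cell anion exchanger, had 3551, 1551 and 2100.1 in KO a, b and c and 2092, 1205 and 1876 in WT a, b and c, and Alas2, the first enzyme of haem synthesis in red cells, had 1661, 778 and 837 in KO a, b and c and 941, 689 and 811 in WT a, b and c. The WT libraries varied too, with 13 of the 39 in the WT top 10% and a median WT ratio of 1.12.

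Cytosolic ribosomal protein genes had a median ratio of 1.78, with 37 of 70 in the top 10%, or 15 without KO a. Ranked by the SD of log2 values the count was 20, and by the squared coefficient of variation less the inverse of the mean it was 24. KO a was above all 5 other libraries in 58 of the 70, against 3521 of the 13038 kept genes with counts. KO b was the lowest KO library in 57 of the 70, against 4476 of those kept genes. It was below all 5 other libraries in 30, against 1965. Rpl35a had 1163, 470.3 and 622 in KO a, b and c and 505, 634 and 613 in WT a, b and c, and Rpl12 had 526, 203 and 318 in KO a, b and c and 212, 198 and 238 in WT a, b and c. Many of these genes have processed copies, to which reads may be assigned. Whether these lists and the low-oxygen genes vary for a shared reason was not tested.

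Endothelial, neuronal and heart genes were more often lowest in KO a than highest. KO a was the lowest KO library in 18 of 30 endothelial, 22 of 35 neuronal and 17 of 28 heart genes, and the highest in 6, 2 and 3 of them. Over the 13038 kept genes it was the lowest in 5063 and the highest in 5053. KO a was below all 5 other libraries in 14 endothelial, 9 neuronal and 15 heart genes, against 3465 of the kept genes. The neuronal share was thus near that of all kept genes. KO b was the highest KO library in 22, 25 and 9 genes of the 3 lists, against 4443 of the kept genes. It was above all 5 other libraries in 14, 21 and 6, against 2134. Myh6, the atrial myosin heavy chain, had 215, 749.8 and 880.0 in KO a, b and c and 1197, 440.5 and 875 in WT a, b and c, and Ina, a neuronal intermediate filament, had 342, 831 and 519 in KO a, b and c and 496, 572 and 362 in WT a, b and c. In Myh6 and Ina KO a was the lowest of all 6 libraries. Aplnr, the apelin receptor of endothelium, had 84.9, 288 and 253 in KO a, b and c and 284, 281 and 238 in WT a, b and c and was likewise lowest in KO a, whereas Flt1, which has the highest ratio of the endothelial list (14.7), and the endothelial adhesion molecule Pecam1 were highest there. Pecam1 had 565, 368 and 301 in KO a, b and c and 330.4, 301 and 319.9 in WT a, b and c. Nes, a filament gene of the neural progenitor list, had 1386, 4037 and 3344 in KO a, b and c and 3773, 3497 and 2739.6 in WT a, b and c, and KO a was the lowest library.

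**Figure D4:**
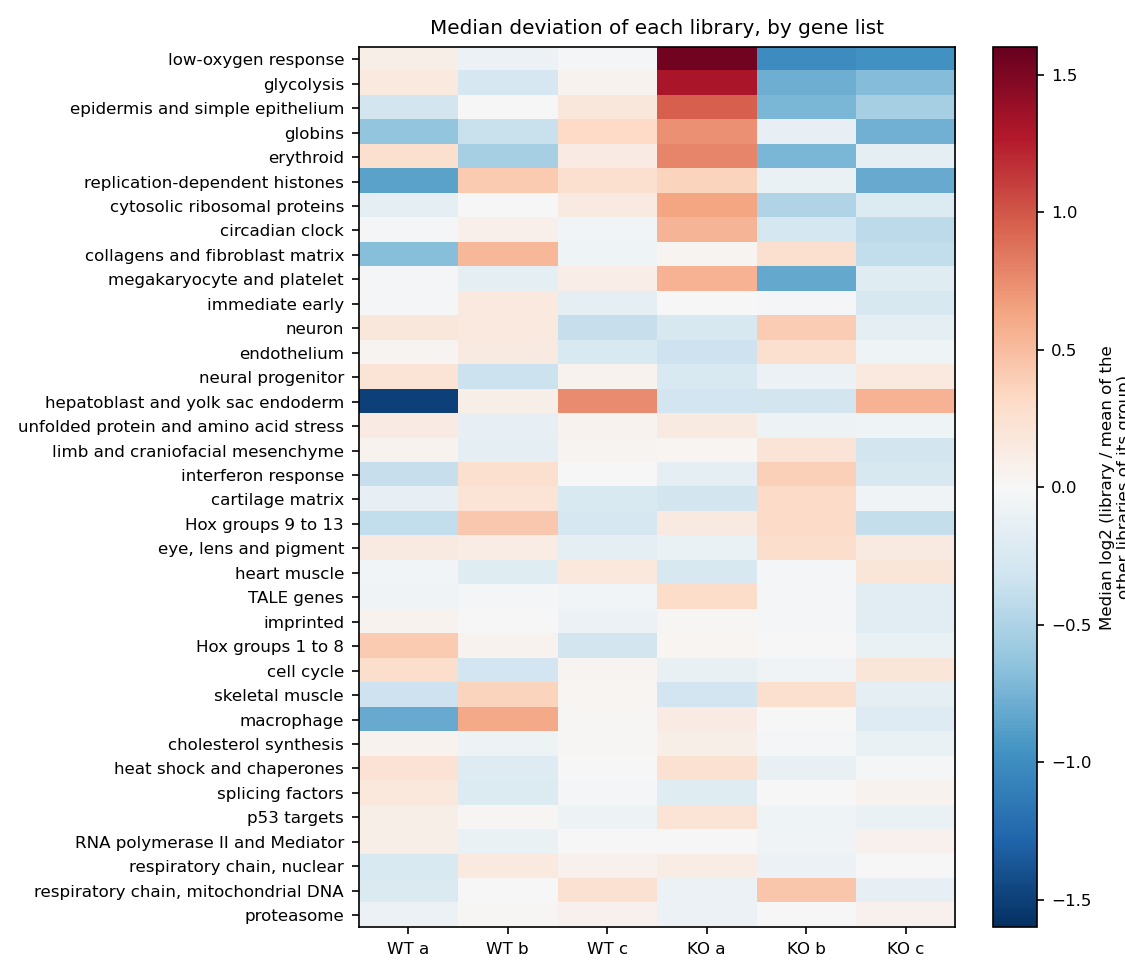
Median log2 ratio of each library to the mean of the other libraries of its group, by gene list, in red where the library is higher and blue where it is lower. KO a is high in the low-oxygen (1.54), glycolysis (1.31), epidermal (0.96), erythroid (0.79) and ribosomal protein (0.63) lists. WT a is low in the hepatoblast and yolk sac list (-1.49).

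The second library that stood apart was KO b, and part of its genes stood apart in WT b as well. Of the 101 genes at least 2-fold higher in KO b, 37 (36.6%) were also at least 2-fold higher in WT b, where 86 genes (0.66%) were. Of the 137 lower in KO b, 44 (32.1%) were lower in WT b, where 107 (0.821%) were. The deviations of KO b and WT b had a Pearson correlation of 0.53 and a Spearman correlation of 0.36 across 13038 genes, against -0.39 to 0.36 for the Pearson correlation of the other KO and WT pairs. Genes are not independent replicates, and the libraries share size factors from 1 table.

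Several genes apart in the b libraries have a near-identical copy with the opposite order. Rps18, a ribosomal protein gene, had 236, 2 and 151 in KO a, b and c and 151, 6.1 and 169 in WT a, b and c. Gm10260, 99.3% identical to it over 456 bases, had 1.15, 885 and 0.975 in KO a, b and c and 0, 1238 and 0.753 in WT a, b and c. Fabp5, a fatty acid binding protein, had 671, 173 and 643 in KO a, b and c and 637, 196 and 765 in WT a, b and c, and Gm6166, 98.3% identical over 409 bases, had 80.3, 591 and 75 in KO a, b and c and 50.6, 626 and 70.8 in WT a, b and c.

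In both pairs the named gene was low and its copy was high in WT b and KO b. A copy of at least 97% identity over at least 300 bases was found for 30 of 76 genes apart the same way in both b libraries (39.5%), for 277 of 1269 top 10% genes (21.8%) and for 2549 of 12705 kept genes (20.1%). Ribosomal protein genes Rps2 and Rpl29 were also low in the b libraries. Rps2 had 1691, 54.9 and 1149 in KO a, b and c and 1117, 68.2 and 1111 in WT a, b and c, and Rpl29 had 486, 18 and 346 in KO a, b and c and 284, 23.4 and 332 in WT a, b and c.

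Globin genes, which carry oxygen in red cells, had a median ratio of 3.06 in KO and 3.44 in WT over 7 kept genes. Hbb-b1, an adult beta globin, had 101, 1018 and 64.3 in KO a, b and c and 66.3, 1882 and 124 in WT a, b and c. Hbb-bh1, an embryonic beta-like globin, had 27915, 6194 and 15689.7 in KO a, b and c and 15135, 6533 and 14058 in WT a, b and c. Hbb-b2, another adult beta globin, had 586.5, 75.9 and 164 in KO a, b and c and 175 and 533 in WT b and c, with WT a between WT b and WT c. The b libraries were highest in each group for Hbb-b1 and lowest for Hbb-b2 and Hbb-bh1, and reads of these similar genes may be shared.

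**Figure D5:**
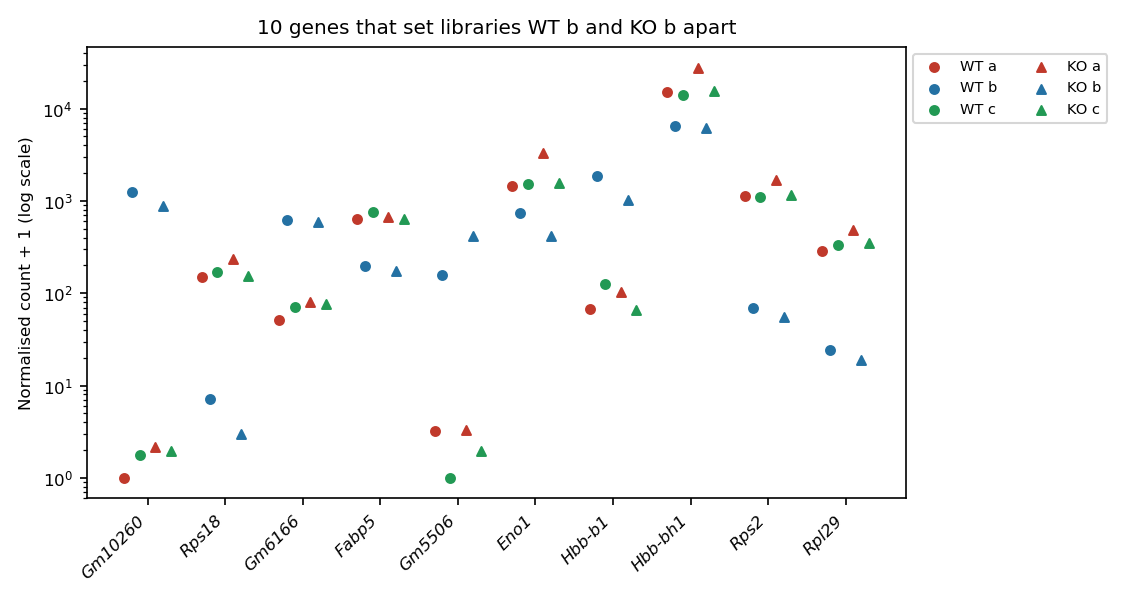
Normalised count plus 1 on a log scale for 10 genes chosen after their values were seen, with circles for WT and triangles for KO libraries and blue for the b libraries. Gm10260, Gm6166, Gm5506 and Hbb-b1 are high in blue where Rps18, Fabp5, Eno1 and Hbb-bh1 are low.

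Proteasome genes varied least. Their median ratio was 0.175 over 31 kept genes, none was in the top 10%, and 4 were in the bottom 10%. KO a was the lowest of all 6 libraries in 17 of the 31 and the highest in 2. Over the 13038 kept genes with counts these numbers were 3465 and 3521. The shift was small, with a median log2 difference between KO a and the mean of KO b and KO c of -0.10. Psma6, a core particle subunit, had 746, 766 and 776 in KO a, b and c and 799, 887 and 811 in WT a, b and c. The most variable member, Psmc6, an ATPase of the cap, had 1332, 877 and 1132 in KO a, b and c and 1024, 1194 and 1171 in WT a, b and c at a ratio of 1.17. In the WT libraries the same genes had a median ratio of 0.383, near that of all kept genes (0.359).

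Nuclear genes of the respiratory chain had a median ratio of 0.239, with 5 of 70 in the top 10% and 11 in the bottom 10%. Their WT median was 0.721. Ndufb9, a complex I subunit, had 369.6, 383 and 386 in KO a, b and c and 325, 477 and 387 in WT a, b and c. Genes of RNA polymerase II and Mediator had a median of 0.292 in both groups, and splicing factors one of 0.334.

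Mitochondrial DNA genes had a low median ratio (0.227 over 8 kept genes) with 3 genes in the top 10%. mt-Co3, a complex IV gene, had 106, 119.8 and 0 in KO a, b and c and 62.9, 0 and 80.5 in WT a, b and c, with 0 in 1 library of each group. The complex I gene mt-Nd6 had 543, 4711 and 3876 in KO a, b and c and 3930.2, 5015 and 5385 in WT a, b and c, and mt-Nd5 had 3980.3, 13070.4 and 13126 in KO a, b and c and 14191, 14119 and 16448 in WT a, b and c. KO a was the lowest of all 6 libraries in both. mt-Nd2, another complex I gene, had 13402, 10470.5 and 10432 in KO a, b and c and 11631, 11375 and 13861 in WT a, b and c, and its KO a value lay within the WT range.

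Among highly expressed genes (mean of 1000 or more), the lowest ratios were those of Nedd4, a ubiquitin ligase, with 10572, 10543 and 10593 in KO a, b and c and 12119, 9608 and 10006 in WT a, b and c, and Gtf2i, a transcription factor, with 2160.0, 2159.6 and 2149 in KO a, b and c and 2126, 1896 and 1906 in WT a, b and c. Kdm1a, a histone demethylase, had 1455, 1445 and 1448 in KO a, b and c and 1544, 1209.7 and 1267 in WT a, b and c. These genes were picked for close KO values, so their wider WT spread says nothing about the groups.

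Values of the Prep1 pair were not used by the ranking, and the spread among the WT libraries was not used either. In recovering counts, the fitted variance was taken to depend on the mean over both groups. On that basis WT levels enter the KO ratio and KO levels enter the WT ratio. The WT ratio is thus not an independent check. The low-oxygen list had a median WT ratio of 0.206 with 3 of 40 in the WT top 10%. Over the 37 of its genes that reached 20 counts in at least 1 library of that pair, the median log2 ratio of the Prep1 hypomorph to its WT library was 0.24, against 0.01 over 12886 kept genes, and 1 gene was past 2-fold. With 1 library per group that ratio has no replicate check. All 6 Meis1 libraries had counts of Y-linked genes and at most 2 counts of Xist.

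Comparing KO with WT over all 6 libraries, edgeR's quasi-likelihood test called 0 of 14441 genes (0.0%) at an adjusted p of 0.05. At an unadjusted p under 0.05 it had 226 genes (1.56%). With a term for the b libraries, added after their values were seen, it called 0, and 358 genes had an unadjusted p under 0.05. DESeq2 called 1 gene, Ppbp, and limma-voom called 0. Ppbp, the platelet basic protein, had 0, 2 and 0.975 in KO a, b and c and 18, 43.8 and 54.9 in WT a, b and c, lay below the minimum mean and is named after its value was seen. Its adjusted p was 0.00171 in DESeq2 and 0.385 in edgeR. In edgeR, Bnip3 had a log2 difference of 1.83 (standard error 0.668) and an adjusted p of 0.9999, and the difference was 0.24 without KO a. That of Vegfa was 1.43 (standard error 0.504), or 0.34 without KO a, and that of Slc2a1 was 1.22 (standard error 0.494), or 0.14 without it.

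The authors' deposited table called 57 of 18904 genes (0.302%) at an adjusted p under 0.1, 46 of them higher in KO. Of these 57, 48 were kept here and 43 were in the top 10% of the KO variance ratio. In 40 of the 48, KO a was at least 2-fold above both other KO libraries. Of the 44 kept genes called higher in KO, 16 had KO b and KO c both above all WT libraries. The authors' deposited table gives Bnip3 a log2 ratio of 1.84 and Vegfa one of 1.43.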

How the data were processed

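The submitters' processing notes name RSEM and genome build mm9 for single-end 68 bp reads. No source used here gives the RSEM version or the test behind the table. The Meis1 values were deposited by the authors as a signal, the mean over the libraries of a group of counts divided by size factors. The deposited ratio for each group is the variance of those scaled counts over a fitted variance. That fitted variance was taken here to depend on the mean over both groups, so the KO and WT ratios of a gene are not separate measures. The authors' deposited log2 ratios, p-values and adjusted p-values belong to their own comparison of KO with WT. The Prep1 values were deposited by the authors as RSEM expected counts and are whole numbers.

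The planned unit was a count per library, whereas the Meis1 file gives means of a group. Whole counts were therefore recovered from each mean, which adds up 3 of them after scaling. This gave 1 answer for 18896 (WT) and 18895 (KO) of 18904 genes, and was tested on simulated data. The 7 genes left unsettled in either group (mt-Cytb, mt-Co1, H19, Actb, Hbb-y, Eef1a1 and Hba-x) were ranked by their deposited ratio and left out of values per library. Repeated entries (37) were dropped.

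KO was compared with WT by edgeR 4.0.16 (TMM, filterByExpr, quasi-likelihood test, Benjamini-Hochberg), with DESeq2 1.42.0 and limma 3.58.1 (voom) beside it, in R 4.3.3. The standard errors given with edgeR are the absolute log2 difference divided by the square root of the test's F statistic. Near-identical copies were searched with BLAST 2.17.0 in GENCODE M21 transcripts. The Prep1 log2 ratios compare depth-scaled counts after adding a prior of 2, for genes reaching 20 counts in either library. The 38 gene lists and the members were chosen with earlier results of these data known. Named genes are the 20 highest ratios, the 10 lowest with a mean of at least 1000, the markers Hspa1a, Bnip3, Vegfa and Slc2a1, Meis1, and of each list the 4 highest and the 1 lowest; other genes were chosen after their values were seen, among them Txnip and the near-identical copies. The p-values set the difference between KO and WT against the spread between these samples, which may be technical. The variance among the KO libraries was not tested.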

Additional observations from a re-analysis of the deposited data

How the results depend on the processing

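The count of low-oxygen genes in the top 10% (36) was between 5 and 34 when each KO library was left out in turn, with 5 without KO a, and stayed within 1.5 times under other minimum means, other measures of spread and TMM scaling. The genes at least 2-fold higher in KO a numbered 82, and those apart in both b libraries 31 against 81, at a minimum mean of 100, an alternative chosen after seeing the data; fewer genes were kept there. KO against WT gave 0 calls in edgeR under every alternative run, 0 in limma-voom and 1 in DESeq2. Without KO a, 41.2% of the top 10% was shared with the full ranking. Ribosomal protein genes in the top 10% fell to 20 when ranked by the SD of log2 values and to 24 by the squared coefficient of variation; the cause was not tested. No paired analysis was possible because the replicate numbers follow accession order and the recovered libraries carry no sample code, so no label pairs them; each group has 1 title coded M and 2 coded by number, which could not be matched to libraries. A term for the b libraries, chosen after seeing the data, also left 0 calls. Each group has 3 libraries, which limits the precision of every variance.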
